A study of Mus musculus with 6 samples.

Results

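The Toll-like receptors are the 10 receptor genes Tlr1 to Tlr9 and Tlr13, chosen by gene symbol from the 55401 genes of the deposited count table. All 10 were detected in each library and passed the filter on low counts, so that they stood among 19554 tested genes. RNA sequencing had been performed on microglia sorted from the brain by magnetic selection for CD11b, an integrin found on microglia and on other cells of the myeloid lineage. The 3 MRL/lpr libraries came from mice that carry the lpr mutation of Fas on the MRL/MpJ background and develop lupus. The 3 MRL/mpj libraries came from the matching strain without it, and both strains were untreated and 6 weeks old. The study gives its n as mice, but the labels do not say how animals map to libraries, so the p-values measure the spread between these libraries, which may be technical. The methods describe female mice, but the sex of the animals sequenced is not given. Each receptor was asked whether its mRNA level differed between the strains, and whether the receptors of the endosome differed from those of the cell surface.

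Toll-like receptors are membrane proteins that recognize conserved parts of microbes and, in the endosome, nucleic acids of microbes or of the body's own cells. In microglia, the resident macrophages of the brain, they start the signals that induce proinflammatory cytokines. Tlr1, Tlr2, Tlr4, Tlr5 and Tlr6 act at the cell surface on lipoproteins, lipopolysaccharide and flagellin. Tlr3, Tlr7, Tlr8, Tlr9 and Tlr13 act in the endosome on RNA or DNA, and the nucleic acid sensors Tlr7 and Tlr9 are known for their part in lupus.

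The sequences bearing on the results are those upstream of the 3 receptors that differed between the strains, Tlr2, Tlr5 and Tlr8, and a stretch that Tlr1 and Tlr6 share. They are given on build GRCm38, 5′ to 3′ on the strand of the gene. RefSeq promoters on GRCm38.p6 were found for 8 of the 10 receptors, those other than Tlr4 and Tlr7, and the 250 bases before the start were searched on both strands for 5 motifs. These were an NF-kB site (GGGNNNNNCC), an interferon-stimulated response element (GAAANNGAAA), a gamma-activated site (TTCNNNGAA), an AP-1 site (TGANTCA) and a PU.1-type purine box (GAGGAA). Capitals mark matches.
Tlr2, chr3:83841768-83841858, minus strand: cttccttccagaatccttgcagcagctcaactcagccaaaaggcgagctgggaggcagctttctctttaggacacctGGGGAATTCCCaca
Tlr5, chr1:182954538-182954787, plus strand: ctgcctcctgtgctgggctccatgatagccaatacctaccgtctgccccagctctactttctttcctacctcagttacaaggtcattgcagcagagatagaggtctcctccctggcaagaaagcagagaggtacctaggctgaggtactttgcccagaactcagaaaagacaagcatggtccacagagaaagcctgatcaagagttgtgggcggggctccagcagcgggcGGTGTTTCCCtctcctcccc
Tlr8, chrX:167264330-167264579, minus strand: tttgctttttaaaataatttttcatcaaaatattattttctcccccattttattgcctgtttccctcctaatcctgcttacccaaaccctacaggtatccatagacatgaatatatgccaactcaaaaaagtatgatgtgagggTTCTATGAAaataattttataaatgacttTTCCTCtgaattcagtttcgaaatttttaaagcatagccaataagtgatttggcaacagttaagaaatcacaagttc
In the Tlr2 window, 2 overlapping matches to the NF-kB site covered bases 173 to 163 before the RefSeq start. The 159 bases of that window nearest the RefSeq start lie inside the gene in GENCODE M21 and are not shown. The Tlr5 window had 1 match to the NF-kB site, on the opposite strand, between 20 and 11 bases before the start. Of all 32841 RefSeq promoters of this length, 45.8% held such a match. The Tlr8 window had no NF-kB match, 1 gamma-activated site at 106 to 98 bases, a motif found in 7.02% of promoters, and 1 purine box on the opposite strand at 77 to 72 bases, found in 23.3%. No match in these 3 windows overlapped one of another motif. An interferon-stimulated response element was found in 2.98% of promoters and an AP-1 site in 6.75%, and none of the 3 windows held either. Matches of these letters are a description of the windows and do not show binding.

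Tlr1 and Tlr6 lie next to each other on chromosome 5 and encode the receptors that pair with Tlr2. Their longest transcripts shared 6 identical runs of at least 50 bases, of 229, 208, 119, 80, 59 and 53 bases and 748 in all. The longest is coding and lies within 1 exon, at chr5:64925537-64925765 of Tlr1 on the minus strand.
Tlr1, shared with Tlr6: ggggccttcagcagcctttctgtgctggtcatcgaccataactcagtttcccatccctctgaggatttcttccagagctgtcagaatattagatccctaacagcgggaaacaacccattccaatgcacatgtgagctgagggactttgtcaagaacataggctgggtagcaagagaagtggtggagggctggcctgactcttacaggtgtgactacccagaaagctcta
Between any other 2 of the 10 receptors the longest identical run was at most 18 bases, for Tlr4 and Tlr6. Of all stretches of 50 bases, 17.1% of those of Tlr1 and 12.3% of those of Tlr6 occurred in another gene. Of the 571 such stretches of Tlr1, 454 were shared with Tlr6, and of the 456 of Tlr6, 454 with Tlr1. Read pairs that lie wholly within the shared runs cannot be assigned to 1 of the 2 genes. The reads were paired and longer than 50 bases, so these shares do not give the share of reads affected. How uncertain the counts of Tlr1 and Tlr6 are was not measured. For Tlr3 the share was 5.3%, with an antisense gene, and for Tlr4 it was 0.234%. The other 6 receptors shared none.

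Tlr2, which binds bacterial lipoproteins together with Tlr1 or Tlr6, had the highest level of the 10 in both strains. Levels were compared as FPKM, read counts that the authors divided by gene length and library total. Tlr2 stood at 152 ± 23.4 FPKM (SD, n = 3) in MRL/lpr and at 82.8 ± 3.09 in MRL/mpj, and no library of either strain reached the Tlr2 range with another receptor. Tlr2 made up 46.2% of the summed level of all 10 receptors in MRL/lpr and 33.7% in MRL/mpj.

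Below Tlr2 stood 3 endosomal receptors. In MRL/lpr microglia the order was Tlr7 at 51.4 ± 21.6 FPKM, Tlr13 at 40.6 ± 0.614 and Tlr9 at 37.8 ± 3.78, with ranges that overlapped between neighbours. In MRL/mpj it was Tlr13 at 46.8 ± 0.807, Tlr7 at 37.2 ± 17.0 and Tlr9 at 33.8 ± 0.567, where Tlr7 overlapped both of its neighbours. Tlr1 and Tlr3 followed in both strains, at 15.1 ± 1.87 and 13.8 ± 1.41 FPKM in MRL/lpr and at 13.4 ± 0.142 and 12.7 ± 1.18 in MRL/mpj, and their ranges overlapped.

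The lowest levels were those of Tlr6, Tlr5, Tlr4 and Tlr8. In MRL/lpr, Tlr6 at 6.60 ± 0.267 FPKM stood just above the range of Tlr5 at 6.07 ± 0.170, and Tlr5 overlapped Tlr4 at 5.53 ± 3.87. In MRL/mpj, Tlr6 at 7.89 ± 0.913 overlapped Tlr4 at 6.80 ± 3.76, which overlapped Tlr5 at 4.13 ± 0.248. Tlr8 was far below all others, at 0.483 ± 0.159 FPKM in MRL/lpr and 0.153 ± 0.0666 in MRL/mpj. Of the remaining mouse receptors, which were not members, Tlr11 had between 0 and 25 counts in a library and Tlr12 between 2100 and 2700. In FPKM, Tlr12 stood at 14.1 ± 2.37 in MRL/lpr and 13.3 ± 1.24 in MRL/mpj, near Tlr1 and Tlr3. Neither gene enters the class sums and ratios below.

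**Figure D1:**
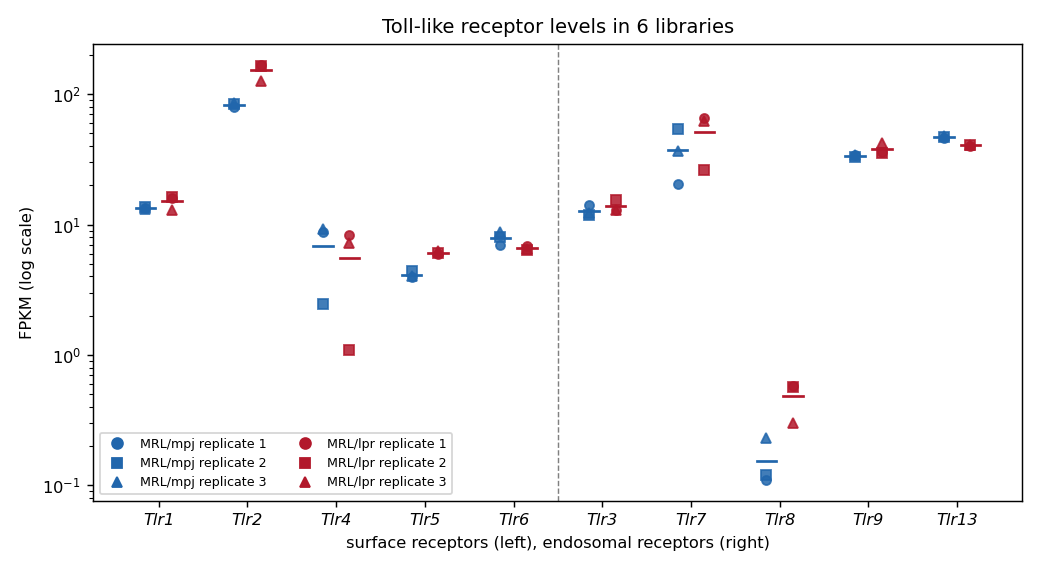
Level of each receptor in FPKM, on a log axis, in the 3 MRL/mpj (blue) and the 3 MRL/lpr (red) libraries, with the surface receptors on the left and the endosomal receptors on the right; symbols mark the replicate and short lines the mean. Tlr2 stood highest and Tlr8 lowest in both strains, and the libraries of 1 strain lay far apart only for Tlr4 and Tlr7 and, at its low level, Tlr8.

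The strains were compared with the quasi-likelihood test of edgeR, and p-values were adjusted by Benjamini-Hochberg over all 19554 genes. A gene was called higher or lower at an adjusted p under 0.05, and differentially expressed if its log2 fold change was also at least 1 in size. Of the 10 receptors, 3 were higher in MRL/lpr, Tlr2, Tlr5 and Tlr8, and 0 were lower, against 11.1% of all tested genes called higher and 9.06% called lower. Only Tlr8 was differentially expressed by the stricter rule, which 4.67% of all tested genes met in the upward direction. All fold changes below are MRL/lpr over MRL/mpj.

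Among the surface receptors, Tlr2 (ENSMUSG00000027995, chr3:83836272-83841767) had 27321, 26575 and 19148 counts in MRL/lpr replicates 1 to 3. In MRL/mpj it had 13202, 13622 and 14313 counts. Each MRL/lpr library was above each MRL/mpj library, with replicate 3 the lowest of its strain. As CPM, counts scaled to a common library total with edgeR's TMM factors for library composition, these were 535 ± 66.7 (SD, n = 3) against 268 ± 9.84. The change was 1.99-fold, with a 95% confidence interval of 1.73 to 2.30 and an adjusted p of 6.82e-05 in edgeR, which put Tlr2 just under the 2-fold minimum of the stricter rule. Tlr2 was called higher under all 15 alternative analyses, with edgeR, DESeq2 or limma adjusted p-values up to 0.00376.

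Tlr5 (ENSMUSG00000079164, chr1:182954788-182976044), the receptor of bacterial flagellin, had 1529, 1569 and 1520 counts in MRL/lpr and 1044, 1136 and 1084 in MRL/mpj. The strains did not overlap, and the libraries of each lay close together. Tlr5 rose from 21.3 ± 1.27 CPM in MRL/mpj to 34.1 ± 2.03 in MRL/lpr (n = 3 each). This was a 1.60-fold change, with a confidence interval of 1.38 to 1.86 and an edgeR adjusted p of 0.000922. It was also called under all 15 alternatives.

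Tlr1 (ENSMUSG00000044827, chr5:64924679-64933563), which recognizes triacylated lipoproteins in a pair with Tlr2, had 2880, 2949 and 2190 counts in MRL/lpr and 2473, 2435 and 2484 in MRL/mpj. The MRL/lpr libraries lay above the others after TMM scaling, but in raw counts and in FPKM replicate 3 lay below them. The log2 fold change was 0.29 ± 0.09 (SE) and missed the threshold, with an edgeR adjusted p of 0.0514. Tlr1 was called under 3 of the 15 alternatives. Without MRL/lpr replicate 3 the log2 fold change was 0.37, with an edgeR adjusted p of 0.00477. With all libraries it was called with at least 40 counts in 3 libraries (edgeR adjusted p = 0.0379) and with counts divided by 4 (0.0350).

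Tlr6 (ENSMUSG00000051498, chr5:64952031-64960097), which pairs with Tlr2 for diacylated lipoproteins, had 1389, 1288 and 1232 counts in MRL/lpr and 1427, 1608 and 1821 in MRL/mpj. The TMM-scaled values of the strains overlapped, whereas in raw counts and in FPKM each MRL/lpr library lay below each MRL/mpj library. In FPKM the gap was small, with 6.39 to 6.90 in MRL/lpr and 6.92 to 8.73 in MRL/mpj. The log2 fold change of Tlr6 was -0.14, with an interval of -0.37 to 0.10 and an edgeR adjusted p of 0.435. Thus of Tlr2 and the pair of receptors it acts with, Tlr2 passed the threshold and neither partner did, and the difference between these fold changes was not tested.

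Tlr4 (ENSMUSG00000039005, chr4:66827584-66930284), the receptor of lipopolysaccharide, had 2473, 332 and 2039 counts in MRL/lpr and 2684, 738 and 2855 in MRL/mpj. Replicate 2 was far below the other libraries in both strains. The log2 fold change was -0.17, with an interval from -2.67 to 2.33 and an edgeR adjusted p of 0.934, so that a strain difference was not detectable. It turned positive without MRL/lpr replicate 2, at 0.32, without MRL/mpj replicate 1, at 0.05, and without MRL/mpj replicate 3, at 0.11. With a replicate block it was -0.39, with an edgeR adjusted p of 0.294, and did not pass the threshold either.

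Among the endosomal receptors, Tlr8 (ENSMUSG00000040522, chrX:167242696-167264329), a relative of the single-stranded RNA sensor Tlr7, had 114, 112 and 55 counts in MRL/lpr. In MRL/mpj it had 23, 23 and 46 counts. The strains did not overlap, but MRL/lpr replicate 3 and MRL/mpj replicate 3 lay close to each other. In CPM these were 2.04 ± 0.627 against 0.597 ± 0.249 (SD, n = 3). The change was 3.41-fold, with an interval of 1.74 to 6.67 and an edgeR adjusted p of 0.0177. It was called under 9 of the 15 alternatives, and the call was lost without MRL/lpr replicate 1 (adjusted p = 0.0637), MRL/lpr replicate 2 (0.0644), MRL/mpj replicate 1 (0.0687) or MRL/mpj replicate 2 (0.0682), with log2 fold changes between 1.60 and 1.64.

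Tlr7 (ENSMUSG00000044583, chrX:167304929-167330558), the sensor of single-stranded RNA, had 14386, 5836 and 12888 counts in MRL/lpr and 4604, 11935 and 8371 in MRL/mpj. MRL/lpr replicate 2 and MRL/mpj replicate 1 were low, MRL/mpj replicate 2 came closest to the upper MRL/lpr libraries, and the strains overlapped. The mean was 246 ± 106 CPM in MRL/lpr and 163 ± 74.6 in MRL/mpj (SD, n = 3). The log2 fold change of 0.59 had an interval of -0.84 to 2.03 and an edgeR adjusted p of 0.543, so that a strain difference was not detectable. It ranged from 0.30 to 0.97 when 1 library was left out, and passed the threshold under none of the 15 alternatives.

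Tlr9 (ENSMUSG00000045322, chr9:106222598-106226883), the sensor of unmethylated CpG DNA, had 6719, 6664 and 7436 counts in MRL/lpr and 6556, 6199 and 6657 in MRL/mpj. Each MRL/lpr library was above each MRL/mpj library, with replicate 3 the highest. The log2 fold change was 0.29 ± 0.09 (SE), with an interval of 0.07 to 0.50 and an edgeR adjusted p of 0.0626. It was called under 4 of the 15 alternatives. With all libraries, DESeq2 called it at an adjusted p of 0.0493. So did edgeR with at least 40 counts in 3 libraries (adjusted p = 0.0483) and with counts divided by 4 (0.0441). Without MRL/lpr replicate 3 the log2 fold change was 0.17 and the edgeR adjusted p 0.0343.

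Tlr3 (ENSMUSG00000031639, chr8:45395665-45411080), the sensor of double-stranded RNA, had 3630, 4342 and 3444 counts in MRL/lpr and 4041, 3295 and 3577 in MRL/mpj. The strains overlapped, and the log2 fold change of 0.24 ± 0.10 (SE) did not pass the test, with an edgeR adjusted p of 0.124. Tlr13 (ENSMUSG00000033777, chrX:106143204-106160493), which recognizes bacterial ribosomal RNA, had 9267, 9498 and 8966 counts in MRL/lpr and 10985, 10770 and 11489 in MRL/mpj. Its raw counts and FPKM were lower in each MRL/lpr library, whereas the TMM-scaled values overlapped. The log2 fold change was -0.08, with an interval of -0.22 to 0.06 and an edgeR adjusted p of 0.408. Scaled by library size only, it was -0.21 with an adjusted p of 0.0365. That scaling moved the median of all tested genes from -0.01 to -0.13 on the log2 scale and the calls from 2178 higher and 1772 lower to 1634 higher and 2790 lower.

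**Figure D2:**
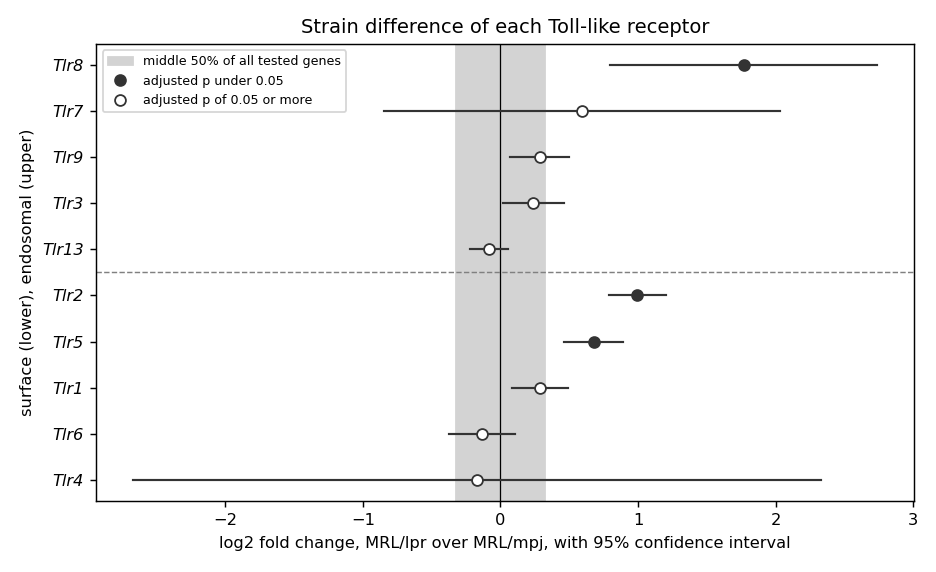
Log2 fold change of each receptor, MRL/lpr over MRL/mpj, with its 95% confidence interval from edgeR (n = 3 libraries a strain); filled points have an adjusted p under 0.05 and the grey band spans the middle 50% of all 19554 tested genes, from -0.32 to 0.33. Tlr2, Tlr5 and Tlr8 lay above the band with their whole intervals, and the intervals of Tlr4 and Tlr7 were the widest.

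Endosomal and surface receptors had about the same median change. The 5 endosomal receptors had a median log2 fold change of 0.29 and a range of -0.08 to 1.77, with 1 higher and 0 lower. The 5 surface receptors had a median of 0.29 and a range of -0.17 to 0.996, with 2 higher and 0 lower. The median over all tested genes was -0.01. On the TMM scale the strains did not overlap for 2 endosomal receptors, Tlr8 and Tlr9, and for 3 surface receptors, Tlr1, Tlr2 and Tlr5, against 39% of all tested genes, so that 5 of 10 is near the background. The 10 genes were taken as given, and no test was made over them.

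In summed level, the surface class was higher in each MRL/lpr library, and Tlr2 made up 82.1% of it in MRL/lpr and 72.0% in MRL/mpj. The surface receptors summed to 205, 193 and 158 FPKM in the MRL/lpr libraries and to 112, 113 and 120 in the MRL/mpj libraries, with no overlap. The endosomal receptors summed to 155, 119 and 159 FPKM in MRL/lpr and to 115, 146 and 131 in MRL/mpj, and these overlapped. The ratio of endosomal to surface level was 0.754, 0.615 and 1.004 in MRL/lpr (mean 0.791 ± 0.197, SD) and 1.02, 1.30 and 1.09 in MRL/mpj (mean 1.14 ± 0.143). The highest MRL/lpr ratio lay just under the lowest MRL/mpj ratio. Without Tlr7 and Tlr2, the most abundant receptor of each class in MRL/lpr, the ratio was 2.81 ± 0.357 in MRL/lpr and 2.92 ± 0.275 in MRL/mpj, which overlapped. Without Tlr7 alone, a choice made after the data were seen, it was 0.508 ± 0.0914 against 0.814 ± 0.0276.

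**Figure D3:**
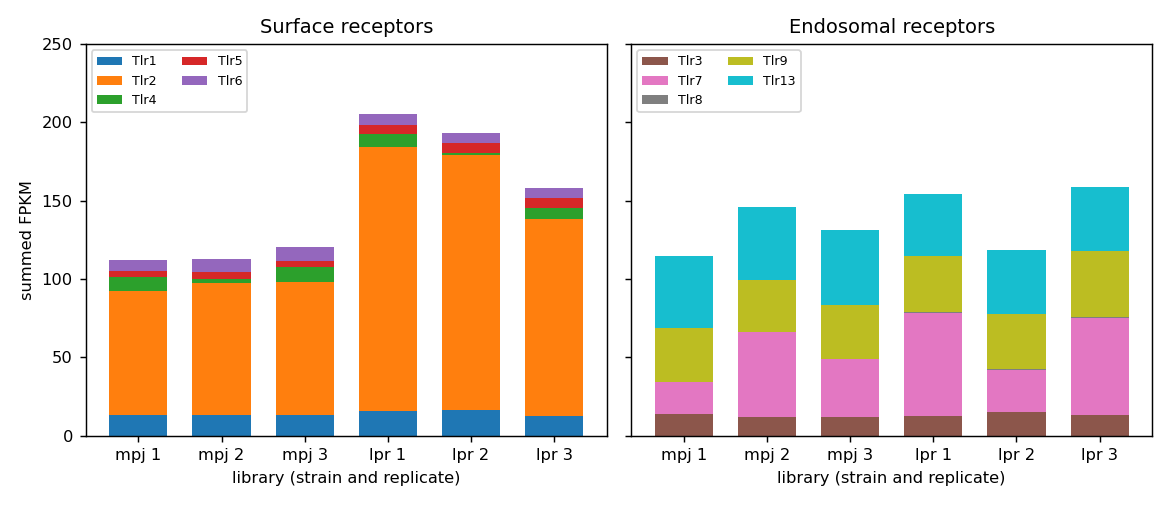
Summed FPKM of the 5 surface receptors (left) and the 5 endosomal receptors (right) in each library, stacked by receptor from 0. The Tlr2 part is larger in each MRL/lpr library than in each MRL/mpj library, while the endosomal sums of the strains overlap and their Tlr7 part varies from library to library.

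Tlr4 and Tlr7 varied between libraries of 1 strain more than almost all genes of similar or higher abundance. The highest MRL/lpr library exceeded the lowest 7.46-fold for Tlr4 and 2.49-fold for Tlr7 in CPM, and in MRL/mpj the values were 3.72-fold and 2.66-fold. Among 6996 genes with a mean of at least 1000 counts, the median ratio was 1.17 in MRL/lpr and 1.11 in MRL/mpj. Only 0.214% of these genes in MRL/lpr and 0.257% in MRL/mpj reached the ratio of Tlr4, and 1.21% and 0.743% that of Tlr7. In MRL/lpr, replicate 2 was the lowest library for both genes. In MRL/mpj, replicate 2 was the lowest for Tlr4 but the highest for Tlr7, and replicate 1 was the lowest for Tlr7. The ratios of the other receptors above 1000 counts, Tlr1, Tlr2, Tlr3, Tlr5, Tlr6, Tlr9 and Tlr13, ran from 1.02 to 1.27. The cause of the spread was not tested.

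**Figure D4:**
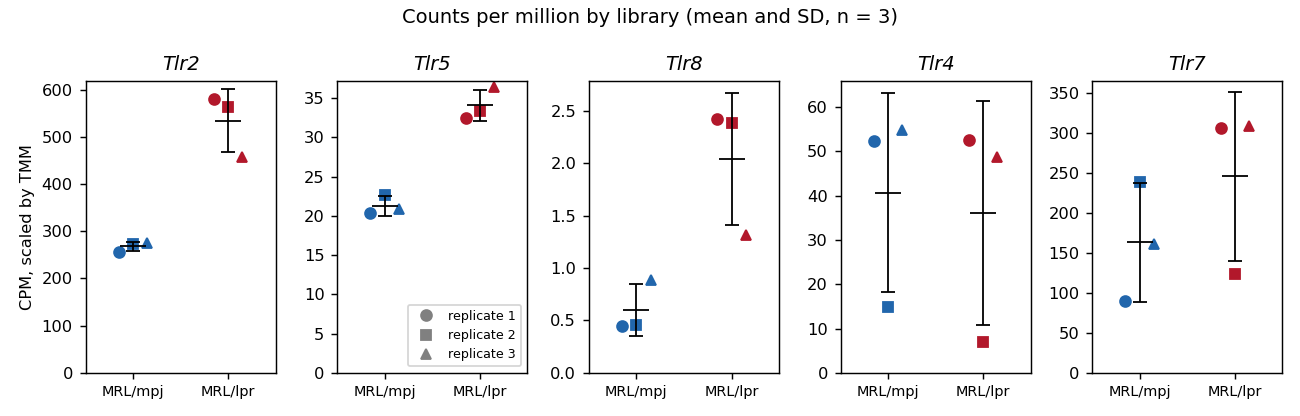
TMM-scaled CPM of the 3 receptors called higher (Tlr2, Tlr5, Tlr8) and of the 2 that varied most within a strain (Tlr4, Tlr7), in each library, with the mean and SD (n = 3) of each strain; every axis starts at 0. For Tlr2, Tlr5 and Tlr8 the MRL/lpr points all lie above the MRL/mpj points, whereas for Tlr4 and Tlr7 the strains overlap. Replicate 2 lies far below the others for Tlr4 in both strains and for Tlr7 in MRL/lpr. The MRL/mpj libraries of Tlr7 are spread out, at 89.6, 239 and 161 CPM in replicates 1 to 3.

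Tlr7, Tlr8 and Tlr13 lie on the X chromosome, and the strains also differed in a sex-linked gene. Xist, the RNA that silences 1 X chromosome in female cells, had 10847, 11319 and 8886 counts in MRL/lpr but 29, 38 and 27 in MRL/mpj (log2 fold change 8.53, edgeR adjusted p = 6.18e-09). The Y-linked genes Ddx3y, Eif2s3y, Kdm5d and Uty were counted in all 6 libraries, with log2 fold changes of -0.27, -0.34, -0.59 and 0.07. Of these only Kdm5d passed the test, with an edgeR adjusted p of 0.00136. Ddx3y, for example, had 3690 to 5720 counts in MRL/lpr and 5505 to 7559 in MRL/mpj. The libraries therefore held RNA of Y-linked genes in both strains and of Xist at a high level in MRL/lpr only. Strain and the sexes of the animals cannot be told apart here, for the X-linked receptors or for any other.

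Over the 621 tested X-linked genes the median log2 fold change was -0.10, with quartiles of -0.44 and 0.13, and 7.25% were higher and 8.86% lower. Of these genes, 1.61% had a log2 fold change at or above that of Tlr8, 8.37% at or above that of Tlr7 and 48.1% at or above that of Tlr13.

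The pathway of the receptors was described by 7 lists of 68 genes, all of which were tested. Of these, 22 (32.4%) were higher in MRL/lpr and 7 (10.3%) lower, against the 11.1% and 9.06% of all tested genes given above. Transcription factors held 5 of the 22 higher genes, negative regulators 4 and inducible targets 7. The lists were written with earlier results of these data known, and the counts are a description.

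Upstream of the receptors, 1 of 6 co-receptor and ligand transfer genes was higher and 3 were lower. Cd14, which hands lipopolysaccharide to Tlr4, rose by a log2 fold change of 0.64 (edgeR adjusted p = 0.000117), with 11050 to 12786 counts in MRL/lpr and 8369 to 9215 in MRL/mpj. Lbp, which brings lipopolysaccharide to Cd14, had 394, 469 and 400 counts in MRL/lpr and 1342, 1332 and 1286 in MRL/mpj, a log2 fold change of -1.47 (edgeR adjusted p = 2.34e-05). Cd180 and its partner Ly86 were lower by less than the 2-fold minimum, at -0.39 and -0.33. Of the 9 genes for folding, trafficking and endosomal cleavage, Cnpy4 was higher at 0.37 and Ctsb, a lysosomal protease, lower at -0.23. The call of Cnpy4 was lost under 11 of the 15 alternatives, and that of Ctsb without MRL/lpr replicate 2, MRL/mpj replicate 1 or MRL/mpj replicate 2. Unc93b1, which carries the nucleic acid sensors to the endosome, had a log2 fold change of 0.11 (edgeR adjusted p = 0.268).

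Among 6 adaptors, 2 were higher and 1 lower. Pik3ap1, which links the receptors to PI3-kinase, had the largest rise at 0.87, and Ticam1, the adaptor of Tlr3 and of endosomal Tlr4, rose by 0.74. Ticam2, which connects Tlr4 to Ticam1, fell by 0.80 on the log2 scale (edgeR adjusted p = 0.000277). Myd88, the adaptor of most Toll-like receptors, had a log2 fold change of -0.08 (edgeR adjusted p = 0.581). Of 17 kinases and ubiquitin ligases, 2 were higher, Traf6 at 0.58 and Peli1 at 0.25, and 0 were lower. Traf6 was called under all 15 alternatives and Peli1 under 3.

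Of 8 transcription factors, 5 were higher and 0 lower. Irf7, which drives type I interferon genes after Tlr7 or Tlr9 signalling and is itself induced by interferon, had 2375, 2410 and 1916 counts in MRL/lpr and 308, 349 and 379 in MRL/mpj. Its log2 fold change of 2.86 (edgeR adjusted p = 4.66e-07) was the largest of the 68 genes. The NF-kB subunit gene Rel rose by 1.002 on the log2 scale (edgeR adjusted p = 3.09e-05), from 12869 to 14018 counts in MRL/mpj to 19159 to 25998 in MRL/lpr. Nfkb2, Nfkb1 and Rela were also higher, by smaller log2 fold changes of 0.99, 0.40 and 0.38. Of 10 negative regulators, 4 were higher and 0 lower, with Il1rl1 at 0.97 (edgeR adjusted p = 0.0016) the largest, followed by Tnfaip3, Nfkbia and Tnip1, which restrain NF-kB, at 0.64, 0.50 and 0.32. Tnip1 lost its call under 9 of the 15 alternatives, including each library left out, Rela under 4, including MRL/mpj replicate 1 or 2 left out, and Tnfaip3 without MRL/lpr replicate 3. Nfkb1 and Nfkbia lost theirs only with limma on FPKM (adjusted p = 0.0583 and 0.0736).

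Of 12 inducible targets, 7 were higher and 2 lower. The cytokine genes Il6, Il10 and Tnf rose by log2 fold changes of 2.29, 1.54 and 1.30, and the prostaglandin synthase gene Ptgs2 by 1.37, with edgeR adjusted p-values of 6.90e-05, 0.0113, 1.10e-06 and 2.51e-05. Tnf had 21886 to 26346 counts in MRL/lpr and 11233 to 11402 in MRL/mpj, and Il6 had 506 to 942 and 149 to 190. Il10 lost its call without MRL/lpr replicate 1 (edgeR adjusted p = 0.0506). Ccl3, Il1b and Ccl4 were higher by 0.98, 0.66 and 0.36, and Ccl4 lost its call with scaling by library size only and with limma on FPKM. The nitric oxide synthase gene Nos2, by contrast, had 39 to 45 counts in MRL/lpr and 123 to 149 in MRL/mpj (log2 fold change -1.55, edgeR adjusted p = 0.00402). Ifnb1, which encodes interferon beta, was lower at -0.63 (edgeR adjusted p = 0.0336), a call lost under 6 of the 15 alternatives, 5 of which left out 1 library (all but MRL/lpr replicate 2). Nos2 was called under all 15.

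**Figure D5:**
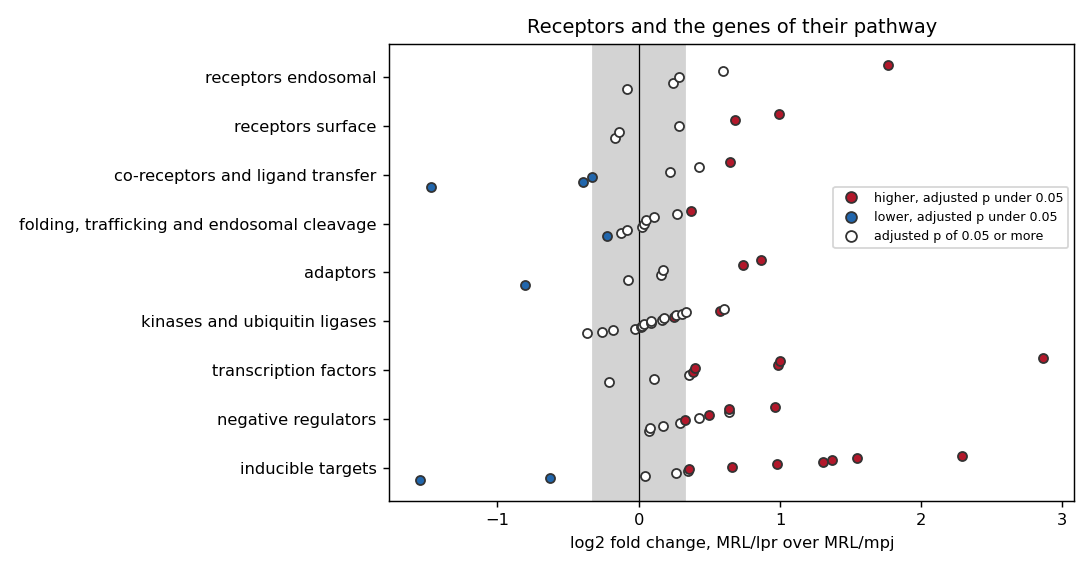
Log2 fold change, MRL/lpr over MRL/mpj, of the 10 receptors and of the 68 genes of the 7 pathway lists, 1 point a gene; red points were called higher and blue points lower, open points did not pass, and the grey band spans the middle 50% of all tested genes. Points called higher are most frequent among transcription factors (5 of 8) and inducible targets (7 of 12), and Irf7 at 2.86 lies farthest to the right.

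Markers of cell types are given beside these values, and some lists differed between the strains while others did not. Their counts of genes called stand against 11.1% of all tested genes called higher and 9.06% called lower. The microglia markers summed to 22644 to 25294 CPM in MRL/lpr and to 26846 to 27454 in MRL/mpj, with 3 of 11 lower and 0 higher. Single libraries stood apart for Cx3cr1, at 226, 2819 and 247 CPM in MRL/lpr replicates 1 to 3. The same held for Olfml3, at 503, 1377 and 1333 CPM in MRL/mpj replicates 1 to 3. Monocyte markers (6 of 10 higher, and 1, Chil3, lower) summed to 124 to 147 CPM in MRL/lpr and 112 to 122 in MRL/mpj. Chil3, the most abundant on average over all libraries, stood at 13.7 to 19.9 CPM in MRL/lpr and 47.1 to 49.9 in MRL/mpj. Without this 1 marker that went the other way, the sums were 104 to 132 and 64.4 to 73.3. Neutrophil markers (4 of 10 higher) summed to 755 to 885 and 597 to 664. Conventional dendritic cell markers (2 of 8 higher) summed to 49.3 to 53.6 CPM and 37.5 to 38.7, and plasmacytoid dendritic cell markers (1 of 9 higher, 2 lower) to 205 to 241 and 167 to 195. Of the B cell markers 6 of 10 could be tested and 0 changed, at 14.6 to 16.1 CPM and 11.7 to 15.3, with Cr2 at 0 in all libraries and Fcer2a at 0 in MRL/lpr. Without Cd79b, the most abundant, they summed to 8.26 to 9.48 CPM in MRL/lpr and 3.62 to 7.30 in MRL/mpj. Of the T cell markers 8 of 10 were higher and 1, Il7r, was lower, at 86.4 to 94.95 CPM and 91.5 to 95.9 in all, of which Il7r made up 69.4% to 94.8% in a library. The other 9 summed to 19.5 to 26.7 CPM in MRL/lpr and 4.76 to 5.21 in MRL/mpj, where Cd8b1 was at 0. Sums without the most abundant gene of a list were made after the data were seen. Of the plasma cell markers 2 of 7 were higher, at 147 to 164 and 135 to 137, with Mzb1 at 0 in MRL/mpj. The other, Jchain, had 647 to 765 counts in MRL/lpr and 42 to 74 in MRL/mpj. Without Txndc5, the most abundant, the plasma cell sums were 84.3 to 85.5 CPM and 59.3 to 66.5. Plasmacytoid dendritic cell markers without Tcf4 summed to 74.8 to 79.5 and 56.3 to 59.8, and microglia markers without Csf1r to 12943 to 15436 and 16796 to 17360. Border macrophage markers (2 of 9 lower) summed to 56.0 to 59.2 CPM and 61.2 to 69.4. Without Mrc1, the most abundant, their sums overlapped, at 34.3 to 38.9 CPM in MRL/lpr and 36.2 to 43.2 in MRL/mpj. Endothelial markers (2 of 8 higher, 1 lower) summed to 2022 to 2158 CPM and 1883 to 1940, and the 3 lists of other brain cells had 0 higher. Without Flt1, the most abundant, the endothelial sums overlapped, at 1339 to 1416 CPM in MRL/lpr and 1354 to 1403 in MRL/mpj. Astrocyte markers (1 of 8 lower) summed to 117 to 164 CPM in MRL/lpr and 196 to 203 in MRL/mpj, neuron markers (2 of 8 lower) to 15.1 to 18.4 and 31.2 to 34.3, and oligodendrocyte markers (2 of 8 lower) to 130 to 153 and 165 to 196. Without Slc1a3, the most abundant, the astrocyte sums overlapped, at 66.6 to 73.9 CPM in MRL/lpr and 64.8 to 76.1 in MRL/mpj. The part of other cells in the receptor levels was not tested, and in these bulk samples fewer cells of a type and less RNA per cell cannot be told apart.

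The MRL/lpr libraries held 45481609 to 48199739 counts each and the MRL/mpj libraries 47826322 to 49846634. Between replicates of a strain the median squared difference was 9.07 to 23.6 times sampling noise, so that no 2 libraries were the same, and the largest of these values involved replicate 3 of MRL/lpr. The noise took each count as an independent read, and libraries were scaled by total only, so these multiples may be overstated. Between 1138 and 1288 genes in a library had exactly 4 counts and only 211 to 261 had 5. How reads were counted is not given in the sources used here, and with all counts divided by 4 Tlr8 still passed the test (log2 fold change 1.70, edgeR adjusted p = 0.0124).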

How the data were processed

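Microglia were isolated from the brain on Percoll and selected with CD11b magnetic beads, and RNA was sequenced as paired reads. Per the labels, ribosomal RNA was removed, while the methods describe mRNA purification. Per the submitters' processing notes and the methods, the authors used cutadapt 1.9.3, HISAT2 2.0.4, Cufflinks, Cuffdiff 2.2.1 and build GRCm38, and DESeq2 for testing. The counting tool and annotation are not given in the sources used here, nor whether counting used strand. The authors deposited raw counts that were not normalized and a second set of values in FPKM, which are those counts divided by gene length and library total and so add no independent information.

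Identifiers were matched to GENCODE M21 (55141 of 55401). Genes were filtered with filterByExpr (minimum count 10, minimum total 15), scaled by TMM and tested with edgeR 4.0.16 (glmQLFit, robust, glmQLFTest) in R 4.3.3, MRL/lpr against MRL/mpj, with no covariates. With 3 libraries against 3, no exact permutation test can go below 0.1. FPKM were tested as log2(FPKM + 0.1) with limma 3.58.1 as an alternative, which understates changes of low genes. Other alternatives were DESeq2 1.42.0, other scalings and filters, counts divided by 4, a replicate block and each library left out. The steps were tested on simulated data. Receptors are all named. Pathway genes are named if differentially expressed, and otherwise the largest rise and fall that passed in a list. Further genes of a list were named after their values were seen. The members and lists were chosen with earlier results of these data known.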

Additional observations from a re-analysis of the deposited data

How the results depend on the processing

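Tlr2 and Tlr5 passed the threshold under all 15 alternatives, with log2 fold changes of 0.87 to 1.10 and 0.55 to 0.73, and Tlr3, Tlr4, Tlr6 and Tlr7 under none. The number of receptors higher was 5 with at least 40 counts in 3 libraries or with counts divided by 4, both of which test fewer genes. It was 4 with DESeq2, 2 with limma and 2 to 5 with 1 library left out. The number lower was 1, Tlr13, with scaling by library size only and with limma on log2(FPKM + 0.1). The number of endosomal receptors higher was 2 with DESeq2, the stricter filter or divided counts, 0 with limma, and 0 to 2 with 1 library left out, and 1 endosomal receptor was lower with library size only and with limma. With library size only and with limma, the median log2 fold change fell to 0.17 and 0.16 for the surface receptors and to 0.16 in both for the endosomal receptors. Tlr8 lost its call with limma (1.19, adjusted p = 0.0521). Tlr4 changed sign, between -0.57 and 0.32, with 1 library left out. The ratio of endosomal to surface level was 1.01 in MRL/lpr and 1.41 in MRL/mpj from summed CPM, 2.81 and 2.92 without the most abundant receptor of each class, and, chosen after the data were seen, 0.525 and 0.865 without Tlr4 and Tlr7 and 0.508 and 0.814 without Tlr7. The causes were not tested.

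The labels share replicate numbers across strains. Over all tested genes, the deviations of same-numbered libraries had correlations of -0.05, -0.03 and -0.06, and those of differently numbered libraries 0.0007 to 0.05. No shared shift over all genes was seen, but such correlations cannot show whether libraries were handled in pairs. With a replicate block, 1754 genes were higher and 1309 lower, 2 receptors and 0 endosomal receptors were higher, and the log2 fold change of Tlr8 was 1.79 (edgeR adjusted p = 0.0601). With 23 to 114 counts, Tlr8 is the receptor that depth limits most.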
